A study of Schmidtea mediterranea with 24 samples.

Results

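RNA from planarian tails was compared between 4 libraries of tails injected with extracellular vesicles and 4 libraries of tails that were not injected, across all transcripts of the deposited count table. These are 8 of the 12 libraries in the study. A library is 1 replicate and holds the RNA of 5 tail fragments. The other 4 libraries, from tails injected with buffer, entered the same statistical model and are given beside the results, because a contrast of vesicle injection with no injection takes the vesicles and the act of injecting together.

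All animals were asexual *Schmidtea mediterranea* of the clonal line CIW4, labelled wild type, starved for 7 days. Extracellular vesicles (EVs) were enriched from fragments of other animals at 12 hours after amputation, by stepwise centrifugation, polymer precipitation and size exclusion, and eluted in IB buffer. The EV-injected group received these vesicles with a fluorescent dextran, at about 1 animal's vesicles per recipient. The buffer-injected group received buffer and dextran, and the uninjected group received nothing. Injected animals with little dextran after 1 hour of recovery were removed, a selection that the uninjected animals did not undergo. The tissue was the tail behind the pharynx without about 10% at its tip, taken 24 hours after injection in the injected groups. The sample titles give no collection time for the uninjected tails. The vesicle preparation was not separated by cell of origin, and each fragment holds all the cell types of the tail.

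Planarians are flatworms that replace lost and worn tissue from dividing stem cells, called neoblasts, which are spread through the body between gut, muscle, nerve cord and epidermis. A wound sets off changes in gene expression in several of these tissues, and the needle of an injection is itself a small wound. EVs are membrane-bound particles that cells release and other cells can take up, and they carry RNA and protein between cells. The count table names transcripts by identifier and pairs none with a gene name, so no function is given here, and the tail label could not be checked against marker genes.

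The 8 libraries held 19621187 to 27724759 counts, with a mean of 23615960 in EV-injected and 23931315 in uninjected tails. Transcripts passing a filter on low counts numbered 21149 of 28742 and held 99.9% of all counts. The biological coefficient of variation, the spread between replicates beyond counting error, was 7.17% in EV-injected and 6.32% in uninjected tails. The labels call the libraries biological replicates but do not name the animals.

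Vesicle-injected tails differed from uninjected tails in many transcripts, mostly by small amounts. At a Benjamini-Hochberg adjusted p under 0.05 in edgeR's quasi-likelihood test, 5452 of 21149 transcripts were called, or 25.8%. Of these, 2935 were higher with EVs (13.9% of those tested) and 2517 were lower (11.9%). The median log2 fold change was 0.31 among higher and −0.35 among lower calls, and 0.0026 over all tested transcripts. In tissue RNA, fewer cells of a type and less RNA per cell cannot be told apart, so none of these changes can be placed in a cell type. Counts of run 1 on their own gave 4713 calls and those of run 2, which is shallower, 3537. Of the 5295 calls that could be tested in each run, 5293 had the same direction in both, though runs of 1 library are technical repeats.

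The sizes of the called changes were unevenly divided. Changes under 1.2-fold made up 34.3% of calls, 1078 higher and 792 lower. A further 47.2% lay between 1.2-fold and 1.5-fold, and 12.9% between 1.5-fold and 2-fold. From 2-fold to 4-fold there were 120 higher and 137 lower transcripts, and beyond 4-fold 34 higher and 10 lower. Most of the transcripts that changed by 2-fold or more were scarce. Their median abundance was 1.85 log2 CPM (counts scaled to a common library size) for rises and 0.60 for falls. At a mean of at least 5 log2 CPM, 36 transcripts rose and 28 fell by 2-fold or more, and 11 rose but 0 fell by 4-fold or more. The mean is over all 12 libraries, most of them injected, so a rise can lift a transcript over the limit. A fall can push it under. The contrast of rises and falls in abundance can therefore be partly built in, which was not tested. The 147 falls of at least 2-fold became 186 without EV-injected replicate 2 and 96 where only transcripts with 1 CPM in 4 libraries were tested.

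**Figure D1:**
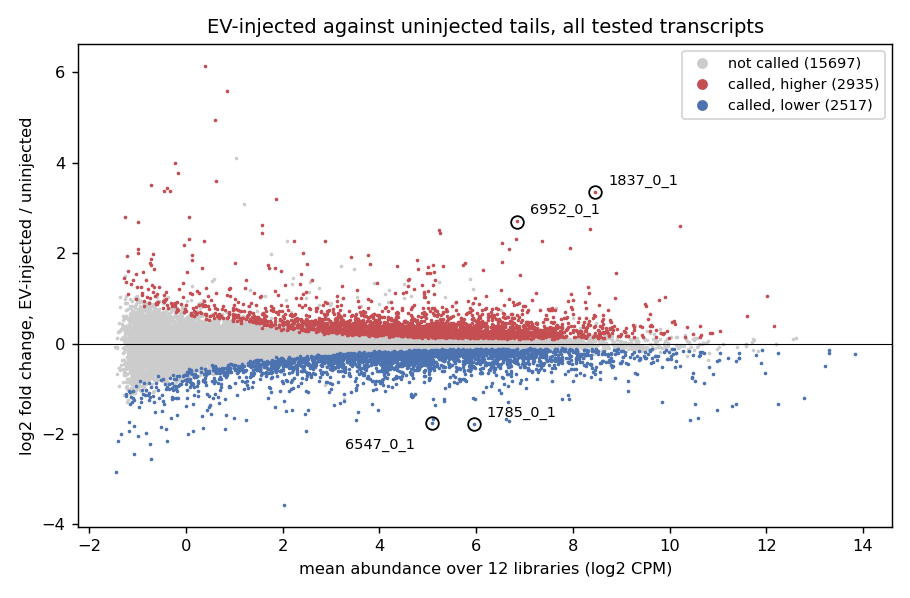
Log2 fold change of EV-injected over uninjected tails (vertical) against mean abundance over 12 libraries in log2 CPM (horizontal), with 1 point for each of 21149 tested transcripts and calls at an edgeR adjusted p under 0.05 in colour. The 2935 higher and 2517 lower calls lie on both sides of 0, and the 4 transcripts described by name are circled.

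The libraries of the groups stayed apart for most called transcripts. In 4665 calls, or 85.6%, all 4 EV-injected libraries lay on one side of all 4 uninjected ones. Over all tested transcripts this held for 26.4%. In 787 calls the groups overlapped. Without a call, the groups did not overlap in 909 transcripts. Leaving out each of the 12 libraries in turn, 3739 transcripts were called every time, which is 68.6% of the list, 2050 of them higher and 1689 lower.

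The 15697 transcripts without a call were not shown to be unaffected. In 29.1% of them the 95% interval excluded any change beyond 1.2-fold, up or down, and in 65.0% and 89.1% it excluded changes beyond 1.5-fold and 2-fold.

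The values of 4 transcripts are given by library. They are the 2 transcripts that rose most and the 2 that fell most among calls with a mean of at least 5 log2 CPM and no overlap between the groups. A total of 1251 rises and 996 falls met these conditions, among 5083 tested transcripts at that abundance. The mean covers all 12 libraries, so a transcript can reach the limit through the groups where it is high. Below, dd_Smed_v6_6952_0_1 reached it through the injected groups and dd_Smed_v6_6547_0_1 through the uninjected one.

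dd_Smed_v6_1837_0_1, a transcript of 694 bases, had 45.1, 57.4, 34.8 and 59.6 CPM in the uninjected libraries and 519, 547, 436 and 513 CPM in the EV-injected libraries. Every EV-injected library was far above the highest uninjected one. The means were 49.2 ± 11.5 and 504 ± 47.7 CPM (SD, n = 4 each), a 10.2-fold rise. On the log2 scale the change was 3.36 ± 0.13 (SE), with an edgeR adjusted p of 5.59e-12. Buffer-injected tails had 508 ± 39.1 CPM (SD, n = 4).

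dd_Smed_v6_6952_0_1, of 1976 bases, had 26.4, 25.8, 23.0 and 22.5 CPM in uninjected and 170, 145, 146 and 176 CPM in EV-injected libraries. The groups were again well apart, and each was tight. The means were 24.4 ± 1.95 and 159 ± 16 CPM (SD, n = 4 each), a 6.50-fold rise, with a log2 fold change of 2.70 ± 0.09 (SE, edgeR adjusted p = 1.62e-12). Buffer-injected tails had 163 ± 19.1 CPM.

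dd_Smed_v6_1785_0_1, of 654 bases, had the largest fall under these conditions. It had 107, 120, 107 and 134 CPM in uninjected and 25.1, 43.2, 33.3 and 33.5 CPM in EV-injected libraries. The highest EV-injected value, in replicate 2, was still far below the lowest uninjected one. The means were 117 ± 12.8 and 33.8 ± 7.42 CPM (SD, n = 4 each), 3.46-fold lower with EVs. On the log2 scale it changed by −1.79 ± 0.13 (SE), with an edgeR adjusted p of 1.45e-08, and buffer-injected tails had 35.2 ± 5.14 CPM.

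dd_Smed_v6_6547_0_1, of 1318 bases, had 56.6, 64.3, 58.4 and 60.0 CPM in uninjected and 14.0, 24.0, 15.9 and 16.3 CPM in EV-injected libraries. EV-injected replicate 2 was the highest of its group here too. The means were 59.8 ± 3.31 and 17.6 ± 4.38 CPM (SD, n = 4 each), 3.40-fold lower with EVs, with a log2 fold change of −1.76 ± 0.16 (SE, edgeR adjusted p = 2.85e-07).

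For none of the 4 did edgeR call a difference of EV-injected from buffer-injected tails. The log2 fold change of EV over buffer had a 95% interval of −0.25 to 0.23 for dd_Smed_v6_1837_0_1, −0.20 to 0.14 for dd_Smed_v6_6952_0_1 and −0.32 to 0.22 for dd_Smed_v6_1785_0_1. For dd_Smed_v6_6547_0_1 it was −0.83 to −0.14, with an edgeR adjusted p of 0.306. Buffer-injected tails had 24.8 ± 6.53 CPM of this transcript (SD, n = 4), and the libraries of the injected groups overlapped. In the authors' deposited table, the log2 fold changes over uninjected tails were 3.35, 2.69, −1.79 and −1.77 in the order given here.

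**Figure D2:**
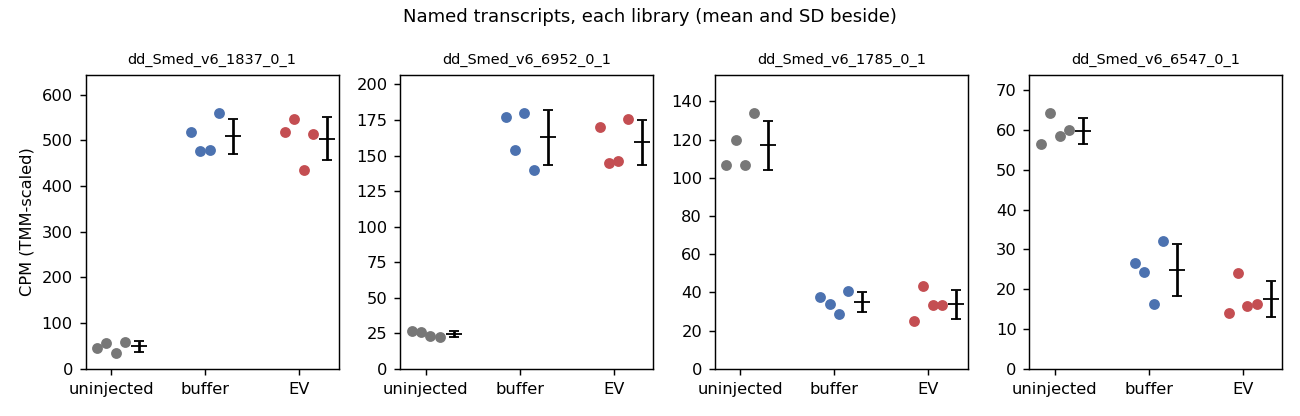
CPM scaled by TMM (vertical, from 0) of the 4 named transcripts in each library of the uninjected, buffer-injected and EV-injected groups, with the group's mean and SD beside the points. EV-injected and buffer-injected libraries overlap in every panel and both stand apart from uninjected libraries.

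The share of transcripts called rose with abundance. Tested transcripts were divided into 4 classes of equal size by mean abundance, from class 1, the scarcest, to class 4. In class 1, 126 were higher and 176 lower, or 5.71% called in all. The share was 15% in class 2, 33.5% in class 3 and 48.9% in class 4, with 1442 higher and 1145 lower. The median standard error of a log2 fold change fell from class 1 to class 4, from 0.29 to 0.05. The median size of a called change fell with it, from 0.96 to 0.26 on the log2 scale. A small change can therefore be called in abundant transcripts and not in scarce ones.

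Direction also varied with abundance. Rises made up 41.7% and 44.8% of calls in classes 1 and 2, and 57.2% and 55.7% in classes 3 and 4. The most abundant transcripts of all went the other way. Of 116 transcripts with a mean of at least 10 log2 CPM, a limit chosen after the values were seen, 50 were lower with EVs and 16 higher, and 56.9% were called. Among them 8 fell and 2 rose by 2-fold or more. The classes and this limit used the mean over all 12 libraries, which a change itself moves. Direction by abundance can therefore be partly built in.

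**Figure D3:**
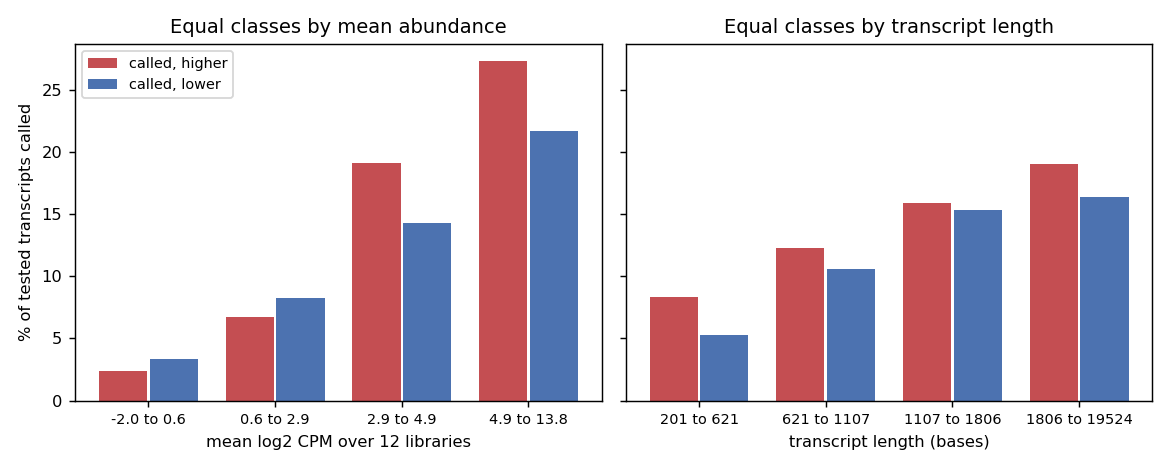
Percent of tested transcripts called higher or lower in EV-injected than in uninjected tails (vertical, from 0), in 4 classes of equal size by mean abundance in log2 CPM (left) and by transcript length in bases (right). Calls run from 5.71% to 48.9% across abundance and from 13.6% to 35.4% across length.

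Long transcripts were called more often than short ones, 35.4% in the longest of 4 length classes against 13.6% in the shortest. Long transcripts were also the more abundant, with a median of 4.96 log2 CPM against 0.37. Within abundance class 4, the shortest transcripts were higher in 29.4% and lower in 17.5% of 371, and the longest were higher in 26.0% and lower in 19.0% of 2694. In abundance class 3, 24.2% of 578 short transcripts were higher and 11.4% lower. Among 1792 long ones there, 15.5% were higher and 15.2% lower. The median log2 fold change of these short transcripts was 0.08, and that of the long ones 0.01. In abundance class 2, 7.93% of 1451 short transcripts were higher and 5.51% lower. Of 714 long ones there, 4.06% were higher and 10.9% lower. In class 1, 0% of 87 long transcripts were higher and 2.3% lower, against 2.67% and 2.39% of 2888 short ones. Within classes 3 and 4, long transcripts were not called more often than short ones. These differences by length are descriptions across transcripts and were not tested.

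The groups overlapped in a measure of length bias between whole libraries. For each library, the deviation of log2 CPM from the mean over all libraries was taken for the longest and the shortest class, and the medians were subtracted. The gap ran from −0.041 to −0.0071 in EV-injected and from −0.040 to −0.00062 in uninjected libraries (exact permutation test, two-sided, p = 0.771, adjusted p = 0.771 over 4 measures).

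In these libraries, the most abundant transcripts held a smaller share of counts in vesicle-injected than in uninjected tails. The 100 most abundant transcripts of each uninjected library took 27.6%, 27.6%, 27.4% and 28.3% of its counts. They took 24.6%, 25.0%, 24.5% and 24.4% in the EV-injected libraries. No EV-injected value reached the lowest uninjected one. Buffer-injected libraries had 24.6% to 25.2% and overlapped with the EV-injected ones. The mean difference was −3.10 percentage points (two-sided exact permutation p = 0.0286, and 4 against 4 can give no smaller p). Adjusted over the 4 library measures, p was 0.0571, which misses 0.05.

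The fewest transcripts that together held 50% of a library's counts numbered 520, 518, 527 and 492 in uninjected libraries and 606, 593, 600 and 618 in EV-injected ones. The groups did not overlap, and the mean was 90 transcripts higher with EVs (exact permutation p = 0.0286, adjusted p = 0.0571). Buffer-injected libraries needed 582 to 602 transcripts.

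The groups overlapped, through 1 library, in an estimate of the transcripts detected at equal depth. It is the number expected if each library were redrawn, with replacement, to the total of the smallest, uninjected replicate 4. Transcripts with at least 1 count were 26102 ± 14.8 in EV-injected and 26131 ± 168 in uninjected libraries (SD, n = 4 each, exact permutation p = 0.771, adjusted p = 0.771). Redrawing loses transcripts with few counts even at full depth, as uninjected replicate 4 itself had 26613 with a count. This loss can differ with depth and was not corrected. In this estimate, uninjected replicates 1 to 3 had 26183 to 26251 and lay above every EV-injected library, while uninjected replicate 4 had 25883. Without uninjected replicate 4 the difference went from −28.6 to −111 transcripts, with an exact permutation p of 0.0571, the smallest that 4 against 3 allows. Counts in EV-injected but not uninjected libraries, or the reverse, were rare and faint. A total of 12 transcripts had no count in any uninjected library and at least 1 in every EV-injected library, with at most 18 counts over the 4 libraries. Another 12 had the reverse pattern, with at most 12 counts. Most of the 24 also had counts in buffer-injected libraries, such as dd_Smed_v6_47212_0_1 with 3, 2, 2 and 2. None of the 24 passed the filter on low counts, so 0 of them were tested.

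The called transcripts took different shares of the RNA. Those called lower held 35.0% ± 0.170 of counts in uninjected and 27.3% ± 1.01 in EV-injected libraries, while those called higher held 17.7% ± 0.169 and 23.6% ± 0.575 (SD, n = 4 each). Both lists were chosen by this contrast, so these shares describe its size and test nothing. Buffer-injected libraries were outside this contrast, but they entered its model and share the control group. Their shares were 28.6% ± 0.699 and 23.1% ± 0.266.

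**Figure D4:**
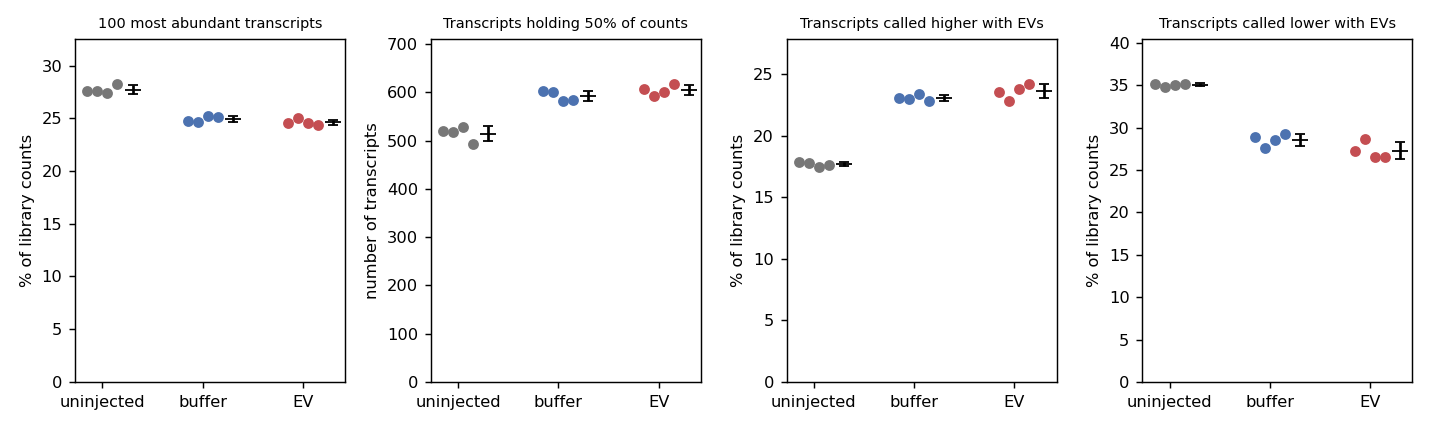
Composition of each library, as the percent of counts in its 100 most abundant transcripts, the number of transcripts holding 50% of counts, and the percent of counts in transcripts called higher and lower with EVs (vertical axes from 0, with mean and SD). EV-injected libraries lie apart from uninjected ones in every panel, at 24.4% to 25.0% against 27.4% to 28.3% in the first. The called lists were chosen by this contrast, so the separation in their panels tests nothing.

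EV-injected tails were also set against buffer-injected tails in the same model. This contrast called 21 of 21149 transcripts, or 0.0993%. Of the 5452 calls against uninjected tails, 16 were among these 21. For 4980 of the 5452, or 91.3%, the 95% interval of EV over buffer excluded any difference beyond 1.5-fold, against 73.6% of all tested transcripts. Most of the calls, 81.5%, were themselves under 1.5-fold against uninjected tails, so this bound does not show that EV and buffer injection act alike. Calls were also more frequent among abundant transcripts, which had smaller standard errors, so 91.3% and 73.6% are not like for like. The contrasts share the EV-injected libraries, so the overlap of their calls is a description only.

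In 13 of the 16 transcripts EV-injected tails were on the same side of both other groups, 9 higher and 4 lower. Against uninjected tails, log2 fold changes of the higher ones were 0.33 to 2.10, and of the lower ones −0.32 to −0.53. Against buffer they were 0.32 to 1.00 and −0.24 to −0.38. These counts depended strongly on which libraries were used. The 13 became 0 without EV-injected replicate 1, and also without EV-injected replicate 3. Without EV-injected replicate 2 there were 39, without uninjected replicate 2, uninjected replicate 3, buffer-injected replicate 4 or EV-injected replicate 4 there were 3, and leaving out buffer-injected replicate 1 gave 5. Leaving out buffer-injected replicate 3 gave 6. The count stayed nearer to 13, at 11, 16 and 15, without uninjected replicate 1, uninjected replicate 4 and buffer-injected replicate 2. DESeq2 gave 84 and the fit with the replicate number as a block 28. Against uninjected tails, 15 or all of the 16 were called in each of 21 alternative fits, and 9 of them passed a minimum fold of 1.5. The 16 were chosen as calls in these same libraries, so this describes them and tests nothing.

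Buffer injection itself was called against uninjected tails in 7 of the 13 transcripts, 6 rises and 1 fall. In the other 6 it was not, and these were named after their values were seen.

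dd_Smed_v6_3383_0_1 had 33.1, 32.8, 34.2 and 36.6 CPM in uninjected and 72.7, 44.9, 44.8 and 64.0 CPM in EV-injected libraries. The EV-injected libraries were uneven, replicates 1 and 4 being the highest, and all lay above the other groups. Buffer-injected libraries ran from 28.7 to 37.1 CPM. The log2 fold change of EV over uninjected tails was 0.73 ± 0.13 (SE, edgeR adjusted p = 0.000292) and that over buffer 0.75 ± 0.13 (SE, edgeR adjusted p = 0.0337).

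dd_Smed_v6_337_0_1 had 56.2, 54.1, 59.0 and 56.5 CPM in uninjected and 70.9, 75.8, 66.7 and 69.4 CPM in EV-injected libraries. Buffer-injected libraries had 52.6 to 60.9 CPM and overlapped with the uninjected ones. The rise over uninjected tails was small and even, at 0.33 ± 0.05 on the log2 scale (SE, edgeR adjusted p = 0.000156). For dd_Smed_v6_2729_0_1 the mean was 8.85 ± 0.310 CPM without injection, 8.88 ± 0.679 with buffer and 12.0 ± 0.929 with EVs (SD, n = 4 each).

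The transcripts lower with EVs, with no call for buffer, were dd_Smed_v6_2643_0_1, dd_Smed_v6_7100_0_1 and dd_Smed_v6_2690_0_1. dd_Smed_v6_2643_0_1 had 140 ± 8.35 CPM without injection, 141 ± 5.94 with buffer and 112 ± 5.65 with EVs (SD, n = 4 each). dd_Smed_v6_7100_0_1 had 47.8 ± 3.42, 48.1 ± 2.55 and 38 ± 0.428 CPM in the same order. In both, buffer-injected and uninjected means lay closer together than their SD. For dd_Smed_v6_2690_0_1 the buffer value lay between, with a log2 fold change over uninjected tails of −0.15 ± 0.07 (SE, edgeR adjusted p = 0.144).

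In the other 3 of the 16 transcripts EV-injected tails lay between uninjected and buffer-injected ones. dd_Smed_v6_5175_0_1 had 175, 153, 139 and 150 CPM in uninjected and 217, 251, 231 and 214 CPM in EV-injected libraries, while buffer-injected libraries had 299 to 325 CPM. None of the 3 groups overlapped. dd_Smed_v6_7683_0_1 had 70.5 ± 5.75, 110 ± 5.87 and 139 ± 7.85 CPM in uninjected, EV-injected and buffer-injected tails, and dd_Smed_v6_7441_0_1 had 15.4 ± 0.609, 27.1 ± 1.33 and 33.7 ± 2.03 CPM (SD, n = 4 each). For EV over uninjected tails the log2 fold changes were 0.56, 0.65 and 0.82 in the order given, against 1.00, 0.98 and 1.13 for buffer over uninjected tails.

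**Figure D5:**
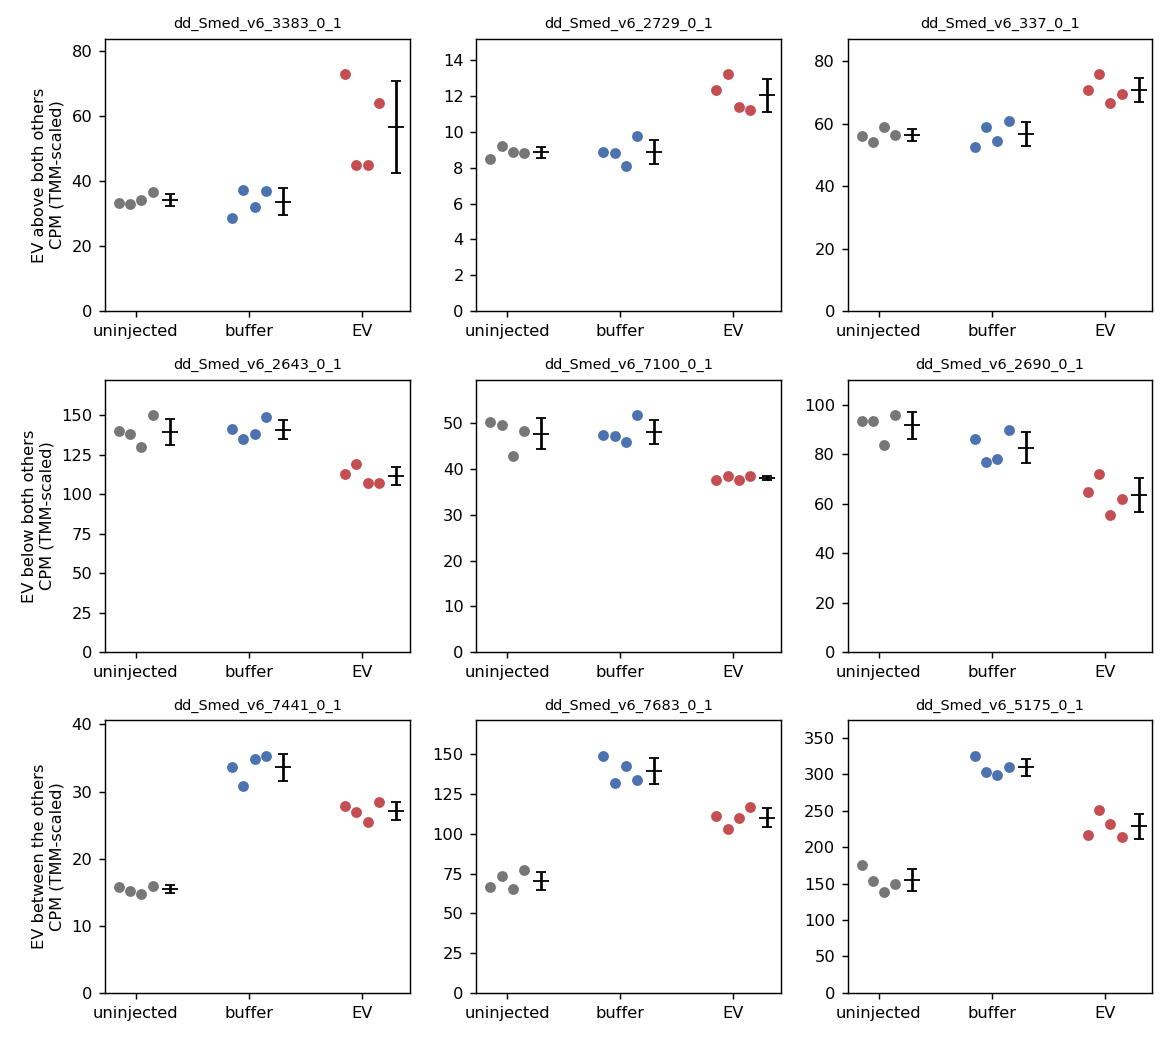
CPM scaled by TMM (vertical, from 0) in each uninjected, buffer-injected and EV-injected library, with mean and SD, for transcripts called against both other groups. In the upper rows EV-injected libraries lie above or below both others and buffer was not called against uninjected tails, and in the bottom row they lie between, as at 214 to 251 CPM for dd_Smed_v6_5175_0_1.

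The authors' deposited table lists 17755 transcripts for this contrast and calls 5499, 2883 higher and 2616 lower with EVs. It shares 5292 calls with the list given here, which is 96.2% of its calls and 97.1% of these, and 0 shared calls differ in direction.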

How the data were processed

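Poly-A selected RNA of 12 tail libraries was read as pairs of 150 bases in 2 runs, per the labels' protocols. The authors deposited raw transcript counts, with no normalization, by run and summed. They used FastQC 0.11.5, Bowtie2 2.3.1, featureCounts (Subread 1.6.3) and edgeR 4.0.16, per the submitters' processing notes, and BBDuk, per the series' design text. How strand and multiply mapping reads were treated is not given in the sources used here, so counts of transcripts that share sequence or overlap are uncertain. The authors' deposited table of comparisons gives, per the file headers, log2 fold changes, a log2 mean CPM, an F score and p-values with their false discovery rate.

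Runs were summed per library, equal to the deposited sums in all 344904 cells. Counts were fitted in R 4.3.3 with edgeR 4.0.16 (filterByExpr, TMM, quasi-likelihood F test, all 12 libraries, no covariate) and called at an adjusted p under 0.05 over all 21149 tested transcripts. SEs come from the F statistic, and CPM are scaled by TMM. The fit was tested on simulated data. Library measures used exact permutation tests (scipy 1.17.1) adjusted over 4 measures. The length gap added 0.5 to counts. Named transcripts are the 2 largest rises and 2 largest falls among calls without overlap at a mean of at least 5 log2 CPM. The transcripts and lists were chosen with earlier results of these data known. Marker lists could not be applied, since the files pair no identifier with a gene name. Alternatives used DESeq2 1.42.0 and limma 3.58.1. The edgeR p-values set a group difference against the spread between these libraries, estimated from all 12. The permutation p-values set it against exchanged group labels of the same libraries.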

Additional observations from a re-analysis of the deposited data

Results flagged for a closer look

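Library totals, the 4 library measures and the 4 named transcripts gave 18 checks for a library that stands apart within the EV-injected or the uninjected group, and chance marks about 0.9 of so many. There was 1 mark. EV-injected replicate 1 had 26124.4 detected transcripts in the estimate for equal depth, against 26093 to 26096 in the other EV-injected libraries. That range is narrow beside the 25883 to 26251 of uninjected libraries.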

How the results depend on the processing

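Calls against uninjected tails (5452, 2935 higher, 2517 lower) stayed within 1.5 times with DESeq2 size factors, DESeq2, limma-voom, either filter, the 8 libraries alone and run 1 alone. They were 3537, 1861 and 1676 with run 2 alone, which is shallower (7055663 to 11613445 counts), and 1006, 479 and 527 with a minimum fold of 1.5. With each library left out they were 4554 to 5478, 2391 to 2990 and 2078 to 2498. The replicate block gave 5483 calls and kept 95.4% of the list. Replicate numbers showed no clear pairing of EV-injected with uninjected libraries. Deviations of same-numbered libraries correlated at −0.020 to 0.031, and 1 of 8 libraries had its best partner under its own number. Pairing with buffer-injected libraries was not tested. DESeq2 size factors moved the median log2 fold change by −0.0043.

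The 13 calls also made against buffer were 84 with DESeq2, 28 with the replicate block, 5 with each contrast on its own 8 libraries, 6 with run 2 alone, 3 with a minimum fold of 1.5, and 0 to 39 with a library left out; the cause was not tested. The 4 named transcripts kept direction and call in 84 of 84 checks, though they were chosen for large changes in these same counts. With a library left out, the share of the top 100 differed by −3.21 to −2.91 points and the number of transcripts holding 50% of counts by 82.6 to 94.3, where p cannot go under 0.0571. The differences in detected transcripts, −111 to 11.5, and in length gap, −0.011 to 0.0025, changed sign in some of these fits, under the same limit on p. The −111 is without uninjected replicate 4, whose 26613 transcripts with a count became 25883 in this estimate. Standard errors were larger in scarce transcripts, and the part of depth in this was not tested.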

Other observations

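The table holds several tested transcripts under 1 identifier number in 157 cases, 319 transcripts in all, of which 108 were called (33.9%, against 25.7% of the others). In 25 of these numbers at least 2 transcripts were called, and in 6 they were called in opposite directions. With a minimum of 1.5-fold for each, 0 numbers remained. The widest gap, chosen after the values were seen, was in dd_Smed_v6_2582. Its transcript dd_Smed_v6_2582_1_1, of 764 bases, had 21.8, 20.7, 19.8 and 19.3 CPM in uninjected and 64.3, 68.7, 67.6 and 70.5 CPM in EV-injected libraries, a log2 fold change of 1.73 ± 0.12 (SE, edgeR adjusted p = 1.02e-08). Its transcript dd_Smed_v6_2582_0_1, of 6440 bases, fell from 130 ± 4.93 to 110 ± 6.09 CPM (SD, n = 4 each), a log2 fold change of −0.24 ± 0.05 (SE, edgeR adjusted p = 0.000573). Buffer-injected tails had 70.6 ± 16.8 and 111 ± 3.18 CPM of these transcripts. Whether transcripts with a shared number share reads was not tested.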
